A study of Schizosaccharomyces pombe with 6 samples.

Results

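The gaps between divergent transcribed stretches are the spans between neighbouring RNAs whose starts point away from each other. Of 328 such gaps, 178 were enriched on both strands in RNA purified with MTREC over total RNA, and 60 on neither strand. Enrichment was common elsewhere too. Taken singly, 68.0% of the strands of these gaps were enriched, beside 60.5% in gaps between stretches of the same strand. Over all stretches, their opposite strands and all gap strands together, the share was 51.5%. The gaps were taken from 6 strand-specific tiling arrays of fission yeast (Schizosaccharomyces pombe). On each, RNA purified with a tagged MTREC subunit was labelled with Cy5 and is here called IP. It was hybridised together with total RNA of the same strain (Cy3, the input). Red1-FTP (strain p919), Mtl1-FTP (p920) and Red5-FTP (p1160) served as baits, with 2 biological replicates of 1 array each. FTP is a Flag, TEV site and protein A tag fused to the gene at its own locus, with natNT2 as the marker in the Red1 and Mtl1 strains. These strains are h90 and ade6-M210, whereas the Red5 strain is h+ and has another ade6 allele, so mating type and ade6 allele cannot be told apart from the bait in comparisons that involve Red5. All strains carry leu1-32 and ura4D18 and were grown at 30 °C in yeast extract medium to an optical density of 1.8 to 2.2. No purification from an untagged strain and no swapped dyes are among the arrays analysed here, so a ratio is IP over input and not IP over a mock purification.

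A stretch was a run of at least 10 probes of the same strand whose input was well above background on all 6 arrays, with gaps of 1 probe bridged. Probes with odd and even numbers lie on opposite strands, and a position is a pair of neighbouring probes, one per strand. A divergent gap is the span from an even-numbered stretch to the next odd-numbered one where 5 to 29 positions lie between. By this rule 328 gaps were found among 935 gaps of that length, beside 114 convergent gaps (odd to even) and 493 tandem gaps (same strand). They hold 656 gap strands and 9726 probes, out of 174063 tile probes. The probe names give a nominal spacing of 40 bases, so a position covers about 80 bases and the gaps run from about 400 to 2320 bases. The files used here tie no probe to a genomic position, a gene or a sequence, so gap strands are named by their first probe.

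In fission yeast, as in other eukaryotes, many promoters are nucleosome-depleted and initiate transcription in both directions. The RNA that runs against the gene, the promoter upstream transcript or PROMPT, is short-lived, because the nuclear exosome degrades it. MTREC delivers such cryptic unstable transcripts to the exosome. Red1 is the zinc-finger scaffold of this complex, Mtl1 its Mtr4-like RNA helicase and Red5 a further zinc-finger subunit. In a gap between divergent genes each strand borders 2 starts. On its own side lies the start of the stretch on the same strand, and this side is upstream of that start. On its neighbour side lies the start of the stretch on the other strand, and an RNA initiated there against the gene would lie on this side.

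The layout of the stretches was that of promoters facing away from each other. Between divergent neighbours a median of 14 positions lay free, whereas between convergent neighbours the median was 0 and 389 of 530 pairs had fewer than 5 positions between them or overlapped. Of the 529 divergent pairs, 106 had fewer than 5 positions between and 95 more than 29. The strand sense of odd and even numbers is not stated in the files, and the word divergent rests on this difference. Whether a gap is a promoter could not be checked, since no probe is tied to an annotated start. Inside the gaps the input was low, as the rule requires. Per array, 22.3 to 34.6% of the gap probes had an input well above background, with the highest value on the second Mtl1-FTP array, the array with the highest input detection on all tile probes as well (57.5% against 47.1 to 49.8%). IP signals passed the same mark at 35.4 to 52.1% of these probes. In bulk RNA, a signal from more cells and a stronger signal per cell cannot be told apart.

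The ratio of IP over input was higher in the gaps than on the flanking transcribed strands with every bait. On the log2 scale, where 0 is the median probe of the array, the mean IP over input of the gaps was 1.003 and 0.507 on the arrays of Red1-FTP. It was 0.75 and 0.85 for Mtl1-FTP. For Red5-FTP it was 0.91 and 0.58. The replicates of a bait thus differed more than the baits, and the lowest values were those of replicate 2 of the zinc-finger baits Red1-FTP and Red5-FTP, on a shared slide. The transcribed strand of the flanking stretches lay close to the array median, between -0.01 and 0.12. The groups do not overlap. The gaps exceeded the flanking transcribed strands by 0.72 ± 0.21 (SD, n = 6 arrays), on 6 of 6 arrays (two-sided exact sign-flip permutation test, p = 0.03125, the smallest that 6 arrays allow, and 0.0375 after Benjamini-Hochberg adjustment over 12 class contrasts). The input flags chose both classes and the input is the denominator of the ratio, so the rule favours this direction. The contrast was also taken with stretches defined on the inputs of those arrays that carry the other replicate number. It was then 0.72 ± 0.20 (exact sign-flip permutation, adjusted p = 0.0375). Those inputs come from the same strains, so this contrast is not free of the rule either, and no conclusion is drawn from these p-values. After normexp background correction the difference was smaller, at 0.20 ± 0.19 with median centring, which did not pass the test (exact sign-flip permutation, adjusted p = 0.0938), and 0.31 ± 0.10 with loess, which did (adjusted p = 0.0375). The sign-flip test treats the 6 arrays as independent although they lie on 3 slides. The means of this difference were 0.82 on slide 1 (3 arrays), 0.50 on slide 2 (2 arrays) and 0.86 on slide 3 (1 array).

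The gaps were also compared with the strand opposite to the flanking stretches, where antisense RNA would lie. This strand had a mean log2 ratio of 0.55 ± 0.15. It was above the gaps on the second Red1-FTP array (difference -0.25) and below them on the other 5 (0.05 to 0.50). The mean difference of 0.22 ± 0.29 did not pass the test (exact sign-flip permutation, adjusted p = 0.170).

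**Figure D1:**
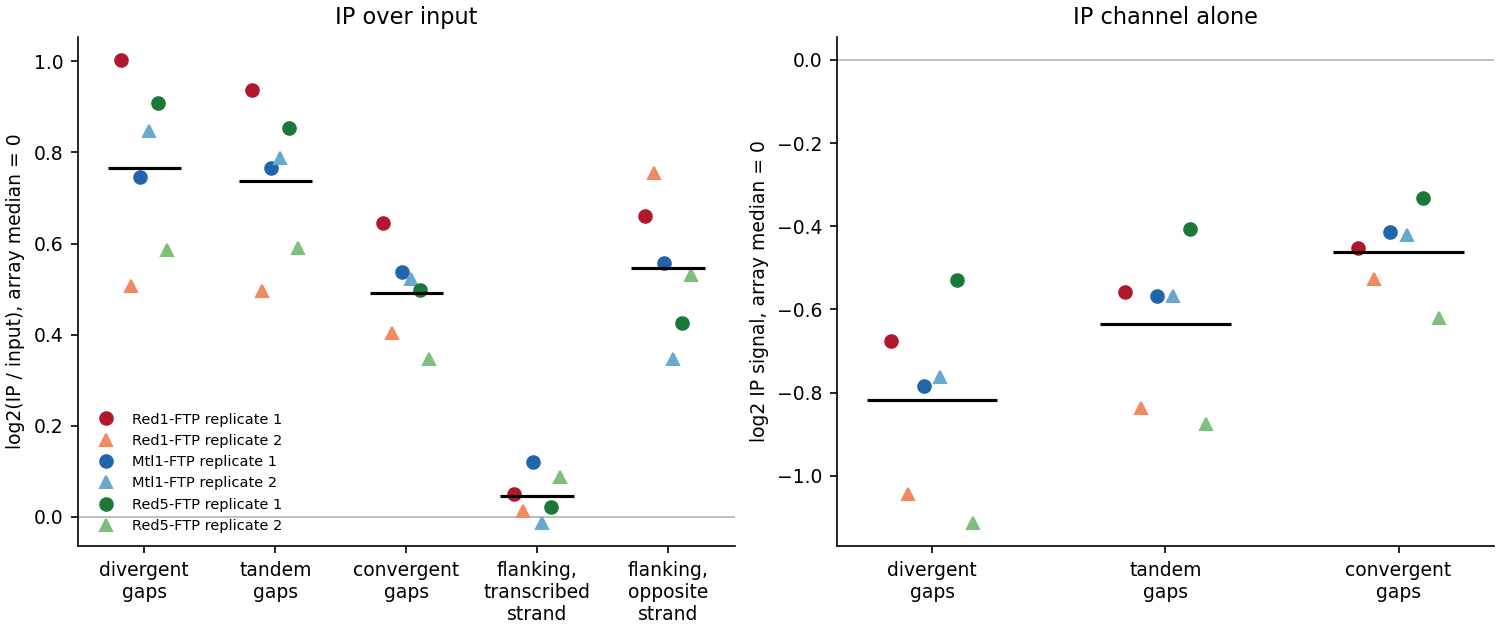
Mean log2 ratio of IP over input (left) and mean log2 IP signal (right) of each class on each array, both relative to the array median, with a bar at the mean of the 6 arrays. Divergent gaps lie between 0.507 and 1.003, above the transcribed strand of the flanking stretches on every array, and their IP signal is below that of tandem and convergent gaps on every array.

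Within a gap strand, enrichment lay towards the neighbour. The side next to the divergent neighbour had a mean log2 ratio of 0.92 ± 0.21 and the side next to its own stretch 0.59 ± 0.17. The neighbour side was higher by 0.37 and 0.27 on the Red1-FTP arrays. On those of Mtl1-FTP the differences were 0.25 and 0.31, and on those of Red5-FTP 0.41 and 0.34. The difference of 0.33 ± 0.06 was on 6 of 6 arrays and larger than its spread (exact sign-flip permutation, adjusted p = 0.0375). With normexp it was 0.18 with median centring and 0.17 with loess, again on 6 of 6 arrays. The IP signal alone, which the rule did not use, was also higher on the neighbour side, by 0.26 ± 0.08 and on 6 of 6 arrays (adjusted p = 0.0375). With 3 positions trimmed from each end of the gaps, these values were 0.39 ± 0.08 for the ratio and 0.30 ± 0.07 for the IP signal. Without bridging of single probes, which leaves 196 divergent gaps, the ratio still differed by 0.28 but the IP signal turned to -0.23. Single gap strands varied, and the neighbour side was higher in 391 of 656 (59.6%).

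Position by position, enrichment peaked a short way from the neighbour's start. In the 251 gaps of at least 10 positions, the mean log2 ratio on the neighbour side was 0.49 at the first position and 0.55 at the second, rose to 0.99 at the third and 1.29 at the fifth, and was 0.97 at the seventh. It was 1.04 at positions 8 and 9 and 1.10 at position 10. Up to position 5 these means hold 502 strands. Only longer gaps reach further, with 408 strands at position 6, 344 at position 7 and 156 at position 10. Positions 1 to 2 ranged over the arrays from 0.37 to 0.71 and positions 4 to 6 from 0.89 to 1.56, without overlap. Positions 4 to 6 correspond to about 240 to 480 bases from the start of the neighbour. This rise was in the IP. The mean log2 IP signal went from -1.15 ± 0.23 at positions 1 to 2 to -0.31 ± 0.29 at positions 4 to 6, while the input went from -1.11 ± 0.17 to -1.01 ± 0.17. Seen from the own side, the log2 ratio was 0.21 at the first position and 0.76 at the fifth. At position 10 it was 1.06, near the 1.10 of the neighbour side. Positions 4 to 6 of the own side had a mean of 0.75 ± 0.20 against 1.26 ± 0.26 on the neighbour side. At these own-side positions the IP signal was lower than on the neighbour side, at -0.62 ± 0.21, and the input higher, at -0.81 ± 0.18. At the first 2 own-side positions the rule leaves no probe whose input is well above background on all 6 arrays, since such a probe would have extended the stretch. Beyond the neighbour's start, opposite its transcribed strand, the mean log2 ratio lay between 0.45 and 0.67. These position means were chosen after the profile was seen and carry no test.

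**Figure D2:**
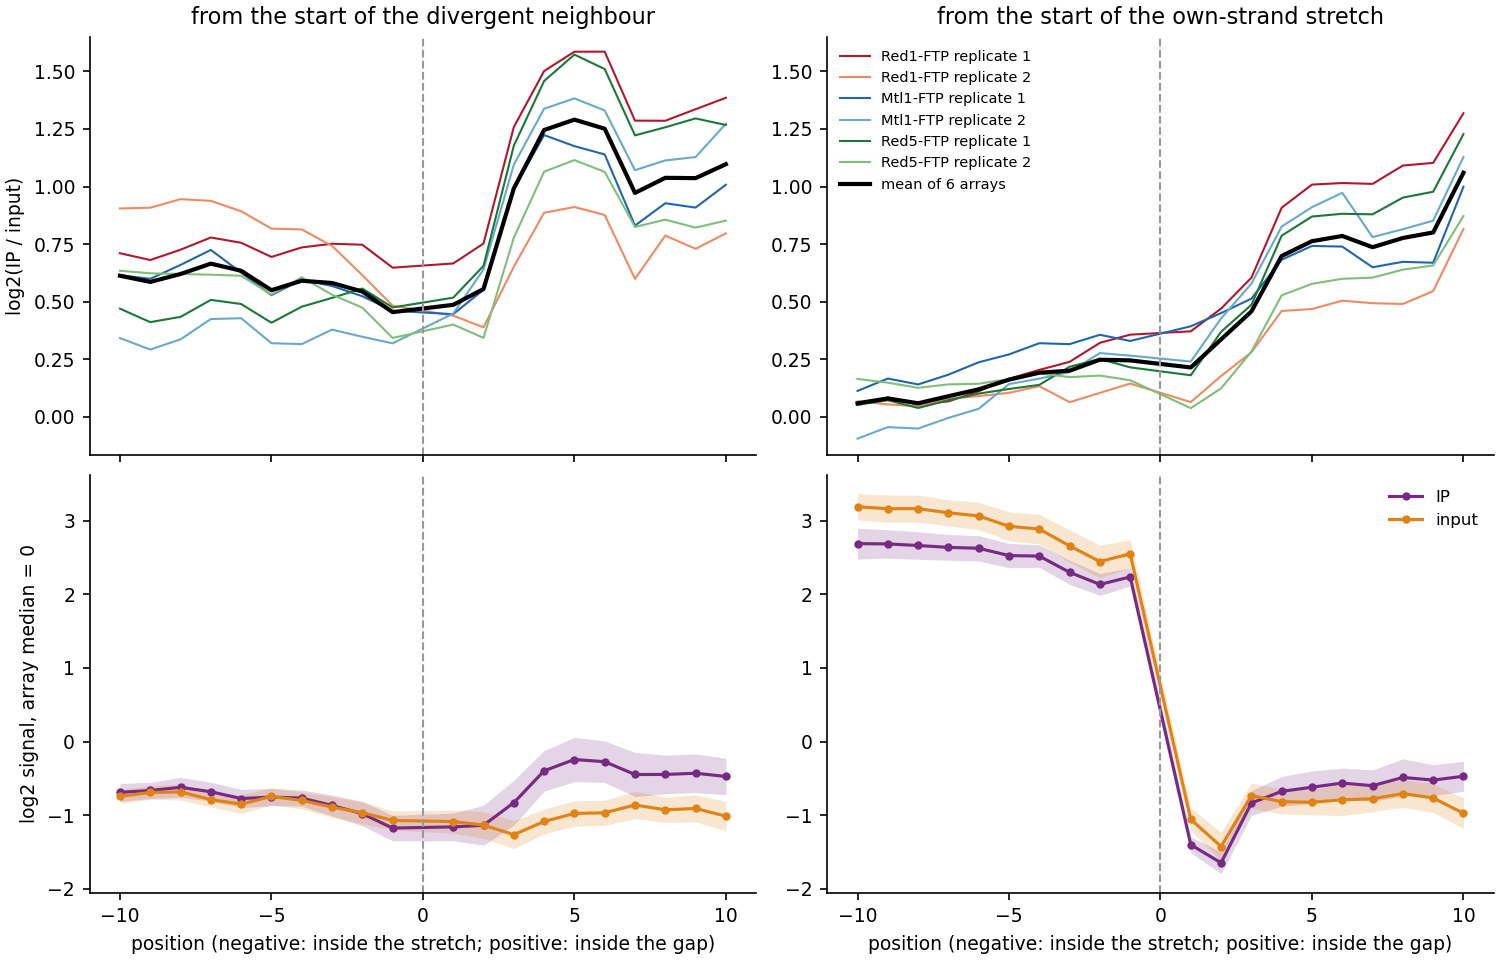
Mean log2 ratio per array (top) and mean log2 IP and input signals with the SD of 6 arrays as bands (bottom) over 251 gaps of at least 10 positions, against the position from the start of the neighbour (left) and of the own-strand stretch (right); negative positions lie inside the stretches. On the neighbour side the ratio rises from 0.49 at position 1 to 1.29 at position 5 and the IP rises with it, while on the own side position 5 is at 0.76. Beyond position 5 inside the gap, the means rest on the longer gaps alone.

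The highest positions were then counted in the gaps of at least 10 positions. Of their 502 strands, 382 (76.1%) had at least 1 position with a mean log2 ratio of 2 or more. Where there was one, the median was 3.5 such positions, which need not be adjacent. This share rests on the highest of at least 10 positions and was not counted for tandem or convergent gaps or all units. It is therefore no trait particular to divergent gaps. The highest position of these 382 strands lay on the neighbour side in 249 and on the own side in 122. At positions 4 to 6 from the neighbour it lay in 119, and at positions 4 to 6 from the own stretch in 55.

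Called singly, 446 of the 656 gap strands (68.0%) had a ratio above 0 and 37 (5.64%) a ratio below 0 at an adjusted p below 0.05, and are called enriched and depleted (limma with Benjamini-Hochberg adjustment over 6190 units, which are all stretches, their opposite strands and all gap strands). Of all 6190 units, 51.5% were enriched and 13.7% depleted. These include the stretches, which were chosen for their input (29.3% and 27.2%). Of the strands opposite to the stretches, 61.1% were enriched and 6.3% depleted, close to the gap strands. The log2 ratio was above 0 on 6 of 6 arrays in 417 gap strands, 63.6% against 46.4% of all units and 56.1% of the opposite strands. With a log2 ratio of at least 1 required, 224 (34.1%) were enriched against 18.5% of all units and 20.1% of the opposite strands. Tandem gap strands came close to this, at 32.4%, and convergent gap strands were at 21.1%. The upper quartile of the tandem gap strands was 1.29 and their highest value 4.99, so strong enrichment was not particular to divergent gaps. The median gap strand was at 0.68, with quartiles of 0.17 and 1.22 and extremes of -1.09 and 3.35, and the median unit at 0.30. These shares rest on the centre of the array. Centred on the mean of the probes instead of the median, 51.7% of the gap strands were enriched and 20.7% depleted, the median gap strand was at 0.35, and 31.2% of all units were enriched. Among single probes of the gaps, 3660 of 9725 tested (37.6%) were enriched and 683 (7.02%) depleted, beside 27.0% and 14.1% of the 174036 probes tested.

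Some positions in the gaps were seen in the IP alone. At 672 of the 9726 probes (6.91%) the IP was well above background on 6 of 6 arrays and the input on none, compared with 3.28% of all probes of the densely tiled part. The share was 6.08% in tandem gaps and 4.59% in convergent gaps. This criterion includes the input, which the rule used, and probes on in a stretch cannot meet it. The input was on none at 59.7% of the probes of divergent gaps, 52.9% in tandem gaps and 47.8% in convergent gaps. The order of the shares is thus also that of the input. It was 8.90% on the neighbour side of the divergent gaps and 4.82% on the own side, with 4706 probes on each. The opposite case, input on 6 arrays and IP on none, held for 4 probes. Where the input is not well above background the ratio is only bounded, and against the lowest input signal that was well above background on each array these 672 probes were enriched at least 1.67-fold, with a median of at least 6.41-fold. Runs of at least 3 such probes occurred on 43 gap strands of 39 gaps, runs of at least 5 on 6, and 359 gap strands had no such probe. Ratios of whole gap strands average over spots of both kinds.

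The input was mostly low in the 10 highest gap strands. From 0 to 36.3% of their spots had an input well above background, beside a mean of 25.1% over all divergent gaps. Only sp40c_128091, sp40c_123744 and sp40c_28035 lay above that mean. The gap strand starting at sp40c_65874, 14 positions long, had log2 ratios of 3.67, 3.20, 3.06, 3.41, 3.40 and 3.38 on the 6 arrays, in the order Red1-FTP, Mtl1-FTP and Red5-FTP with replicate 1 first. Its mean of 3.35 ± 0.10 (SE, limma, adjusted p = 8.68e-07) was the highest of the gap strands called. Its positions 2 to 8 from the neighbour's start ranged from 3.67 to 6.17 and its last 2 positions were at 0.14 and 0.11, so the block lay on the neighbour side (4.88 against 1.83). The IP was well above background on 6 arrays at 11 of its 14 probes, and at 5 of them the input was on none, with bounds of at least 3.5-fold to at least 41.2-fold. The other strand of this gap, sp40c_65873, was enriched as well, at 2.40, and its highest position, 5.94, was the second from its own neighbour. On both strands of this gap the highest positions thus lay towards the neighbour.

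The gap strand sp40c_25976 had no input signal well above background on any array. It is 7 positions long, and its log2 ratios were 3.41, 3.45, 3.61, 3.75, 3.01 and 2.83. Both Red5-FTP arrays were the lowest. Its 5 inner positions, at 3.78 to 5.15, were all seen in the IP alone, with bounds of at least 6.29-fold to at least 15.3-fold, and its outermost positions were at 0.00 and 0.20. The signal was inside the gap and did not reach either stretch.

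The gap strand sp40c_35126 held 1 of the 2 longest runs of probes seen in the IP alone, the other being on sp40c_89381, which was named after its value was seen. It covers 17 positions, and its log2 ratios were 3.49, 2.41, 2.26, 3.12, 2.86 and 2.91. Its run was 6 probes long and lay at positions 3 to 8 from the neighbour, where the ratios were 3.57 to 4.98. In all, 8 of its probes were of this kind, with bounds of at least 5.21-fold to at least 13.1-fold. Another strand with 8 such probes was sp40c_99096 (22 positions, mean 2.06), followed by sp40c_9145 and sp40c_65873 with 7 each.

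The gap strand sp40c_65330 showed a block with a sharp end. It is 10 positions long, and its log2 ratios were 2.97, 2.72, 2.65, 3.06, 3.14 and 2.35. Positions 1 to 5 from the neighbour were at 4.21 to 6.71 and positions 6 to 10 at -0.55 to 0.13. The IP was well above background on 6 arrays at each of the first 5 positions and on none at the others. This is the reverse of sp40c_123744, a gap strand of 5 positions with a mean of 2.96, whose own-side positions were at 5.28 and 5.63 and whose neighbour-side positions were at -0.19 and 0.02.

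The other 5 of the 10 highest were sp40c_83567 (3.29), sp40c_128091 (3.24), sp40c_28035 (3.105), sp40c_74661 (3.08) and sp40c_90877 (2.77). Their neighbour side was higher in 3 and their own side in sp40c_128091 and sp40c_90877. Red1-FTP replicate 2 was the lowest array in all 5.

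**Figure D3:**
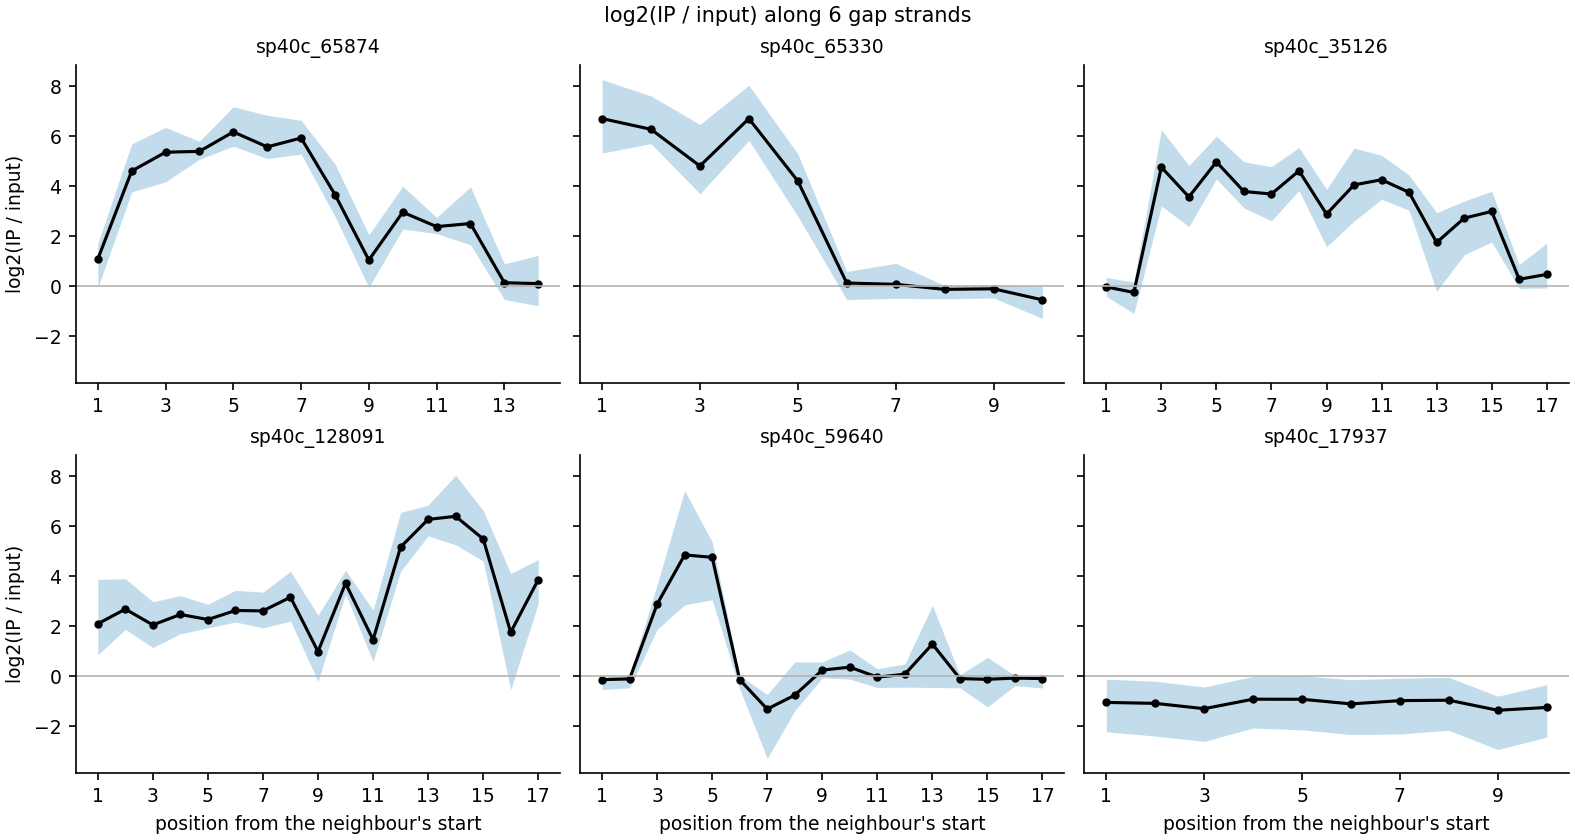
Log2 ratio of IP over input along 6 gap strands against the position from the neighbour's start, as the mean of 6 arrays (line) with the range of the arrays (band). The blocks of sp40c_65874, sp40c_65330 and sp40c_35126 lie next to or near the neighbour, that of sp40c_128091 is highest on its own side, sp40c_59640 has 3 high positions and sp40c_17937 is below 0 throughout.

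A gap strand at the median held a few high positions. The gap strand sp40c_59640 is 17 positions long, and its log2 ratios were 0.65, 0.38, 0.71, 0.71, 1.10 and 0.56. Positions 3 to 5 from the neighbour were at 2.89, 4.86 and 4.76, while 12 of the other 14 were between -0.75 and 0.37. The other strands nearest to the median, sp40c_38083 and sp40c_118296, also had means of 0.68, the first with the neighbour side higher (0.96 against 0.41) and the second with the own side higher (1.26 against 0.16).

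The 5 lowest of the depleted gap strands differed in their input. The lowest, sp40c_17937 (10 positions), had log2 ratios of -0.73, -0.52, -0.28, -1.25, -2.33 and -1.43. It was below 0 on 6 of 6 arrays, with the Red5-FTP arrays and the second Mtl1-FTP array lowest. Its mean log2 input signal lay 5.70 to 6.64 above the array median. At 8 consecutive probes the input was well above background on all 6 arrays, just short of the 10 that make a stretch, so this gap strand carried abundant RNA that was lower in the IP than in the input. The next lowest, sp40c_57750 (-0.76), also had 8 such probes of 18. The remaining strands of the lowest 5, sp40c_143548 (-0.69), sp40c_7052 (-0.58) and sp40c_125474 (-0.55), are 5 or 6 positions long, and 5.56 to 11.1% of their spots had an IP signal well above background.

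**Figure D4:**
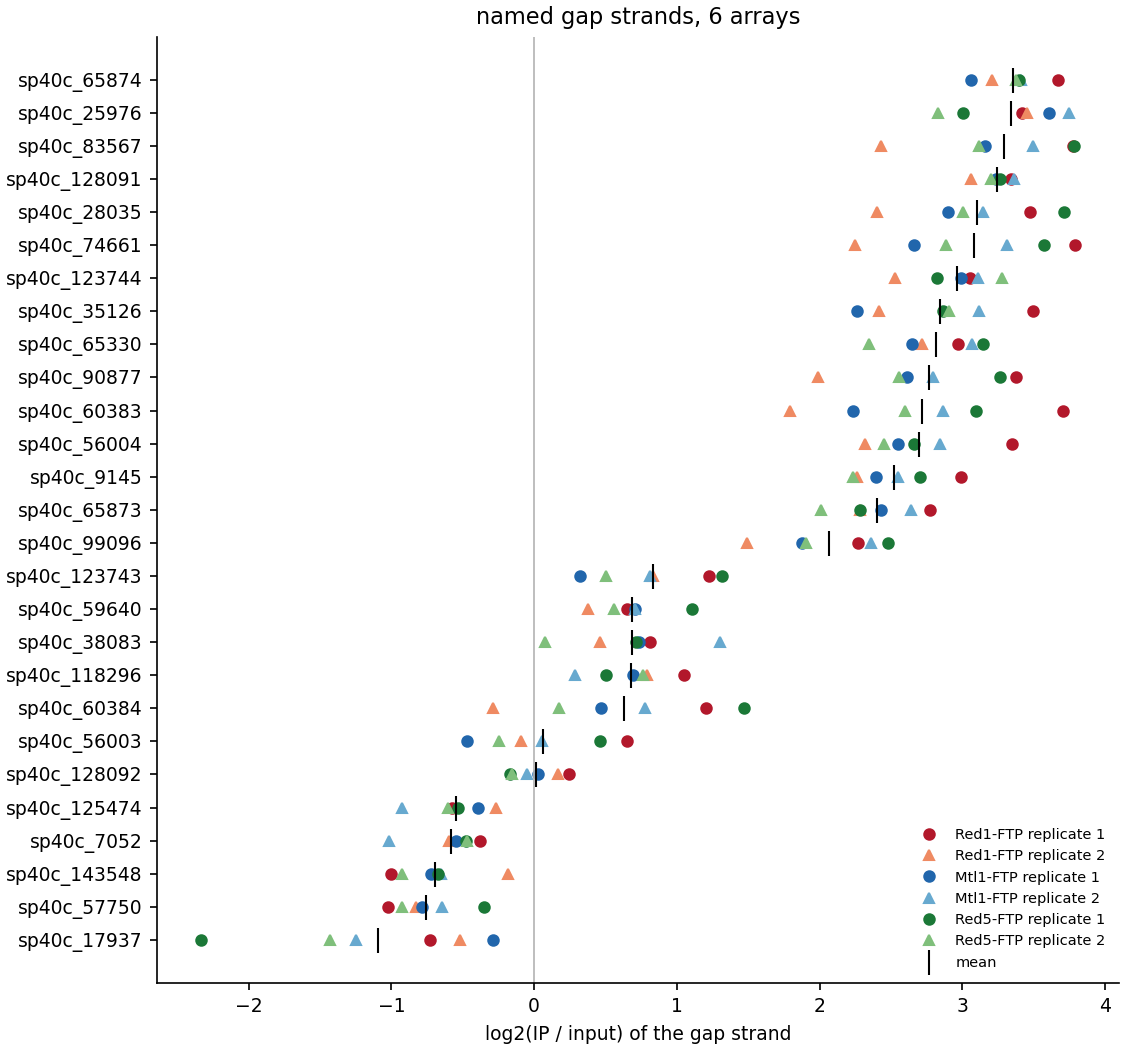
Log2 ratio of IP over input of the 27 named gap strands on each of the 6 arrays, sorted by the mean (bar). The 10 highest lie at 1.99 or above on every array, and the 5 lowest lie below 0 on every array.

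The strands of the same gap were then compared. Both strands were enriched in 178 gaps, the odd-numbered strand alone in 40, the even-numbered alone in 50 and neither in 60. Taken singly, 68.0% of the gap strands and 51.5% of all units were enriched. The count of both strands was not made for tandem or convergent gaps. Over the 328 gaps the values of the strands correlated (Pearson r = 0.48, Spearman rho = 0.49). These pairs share arrays and gap length, and the correlation is a description. The median difference between the strands was 0.45 in size, it exceeded 1 in 68 gaps and 2 in 5. The mean over even-numbered strands was higher than over odd-numbered strands by 0.07 ± 0.01 on 6 of 6 arrays (exact sign-flip permutation, adjusted p = 0.0375), a difference that was -0.00 without bridging of single probes.

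The most unequal gap was that of sp40c_128091. Its odd-numbered strand had log2 ratios of 3.34, 3.06, 3.24, 3.36, 3.26 and 3.20. The even-numbered strand, sp40c_128092, had 0.25, 0.17, 0.03, -0.05, -0.17 and -0.16. The strands differed by about 3 on every array, and the second was at the array median (mean 0.01 ± 0.08, SE). Its sign changed with the setting, for example to -0.32 with centring on the mean. In the gap of sp40c_60383 the odd-numbered strand was at 2.71 and the even-numbered at 0.63, the latter, sp40c_60384, above 0 on 5 of 6 arrays (limma, adjusted p = 0.0357) and no longer called under 9 of its 20 alternatives. In the opposite direction, sp40c_56004 was at 2.69 against 0.06 for sp40c_56003, and sp40c_123744 at 2.96 against 0.83 for sp40c_123743.

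**Figure D5:**
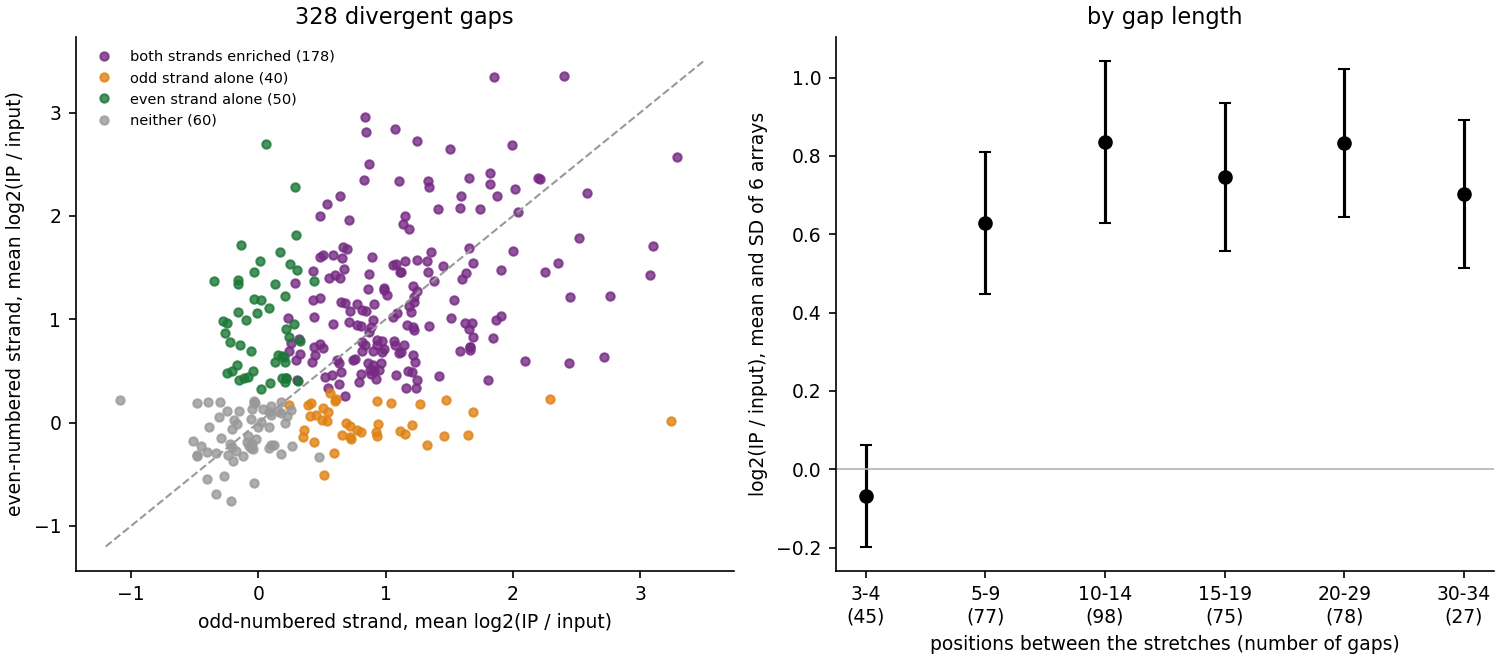
Left, mean log2 ratio of the even-numbered against the odd-numbered strand of the 328 divergent gaps, coloured by which strands were enriched at an adjusted p below 0.05, with the line of equality; 178 gaps are enriched on both strands. Right, mean log2 ratio by the length of the gap, with the SD of 6 arrays as bars; the lengths 3-4 and 30-34 lie outside the rule.

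Gaps of 5 to 9 positions were less enriched than the longer gaps, and beyond 9 positions the ratio did not rise steadily with length. The mean log2 ratio was 0.63 ± 0.18 in the 77 gaps of 5 to 9 positions, 0.84 ± 0.21 in 98 gaps of 10 to 14, 0.75 ± 0.19 in 75 gaps of 15 to 19 and 0.83 ± 0.19 in 78 gaps of 20 to 29. The shortest class was lower than the longest on 6 of 6 arrays, by 0.20 ± 0.03 (exact sign-flip permutation, adjusted p = 0.0375). Just outside the rule, 45 gaps of 3 to 4 positions were at -0.07 ± 0.13 and 27 gaps of 30 to 34 positions at 0.70 ± 0.19. Just inside it, gaps of 5 positions were at 0.56 and gaps of 29 positions at 0.75. Over the 656 gap strands, measured on the same arrays as their flanks, correlations with the flanking stretches were weak. Pearson's r was 0.11 with the ratio and -0.01 with the input of the own stretch, 0.02 with the ratio and 0.14 with the input of the neighbour stretch, and 0.15 with the ratio of the strand opposite to the neighbour stretch.

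Divergent gaps were set against the other gaps of the same length. In the ratio they exceeded convergent gaps on 6 of 6 arrays, by 0.27 ± 0.11 (0.77 ± 0.19 against 0.49 ± 0.11, exact sign-flip permutation, adjusted p = 0.0375). The size depended on the processing, with 0.095 and 0.11 under the normexp settings and 0.57 over probes detected in either channel. In the IP signal alone they were lower than convergent gaps, by 0.36 ± 0.13 on 6 of 6 arrays (adjusted p = 0.0375), and IP was detected at 44.5% of their probes against 49.0%. The input moved with this, since it was well above background at 25.1% of the probes of divergent gaps and 36.6% of those of convergent gaps. Its mean log2 signal was -0.98 in divergent and -0.33 in convergent gaps. The higher ratio thus went with a lower input and not with a higher IP. Input flags chose both classes and the input is the denominator, so no conclusion is drawn from the p-value of the ratio. Over gap strands with at most 20% of the input detected, the IP signal of divergent gaps was instead the higher, by 0.39 ± 0.16 on 6 of 6 arrays (adjusted p = 0.0469). By single calls, 52.2% of the convergent gap strands were enriched and 14.5% depleted. The direction of the difference in the IP thus depended on which gaps were compared. In the ratio the difference was 0.42 over the strands with at most 20% of the input detected. These strands were chosen on each array by the input of that array, the denominator of the ratio, so this value is no independent check.

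Tandem gaps, which lie between neighbouring stretches of the same strand, had a ratio of 0.74 ± 0.17. Whether they hold the end of a gene and the start of the next could not be checked. The difference from divergent gaps, 0.03 ± 0.04, did not pass the test (adjusted p = 0.188), with 4 of 6 arrays higher and a range of -0.02 to 0.07. With normexp it was negative, at -0.02 with median centring (adjusted p = 0.0375) and -0.01 with loess (adjusted p = 0.125), and under 8 other settings it was positive and passed, at up to 0.19 with 3 positions trimmed from each end. The IP signal was lower in divergent than in tandem gaps by 0.18 ± 0.05 on 6 of 6 arrays (exact sign-flip permutation, adjusted p = 0.0375). It was detected at 46.6% of the probes of tandem gaps, and the input at 30.7%. Of the tandem gap strands, 60.5% were enriched and 9.53% depleted.

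The 3 baits were compared over the same gap strands. Red1-FTP enriched 358 gap strands (54.6%, beside 39.1% of all units), Mtl1-FTP 353 (53.8%, beside 34.7%) and Red5-FTP 351 (53.5%, beside 34.8%) at an adjusted p below 0.05 (limma). Of the gap strands, 428 (65.2%) were enriched with at least 1 bait, beside 47.9% of all units, and 287 (43.8%) with all 3, beside 26.2% of all units. No gap strand differed between baits at an adjusted p below 0.05, beside 0.0162%, 0.0% and 0.0162% of all units in the contrasts Red1 minus Mtl1, Red1 minus Red5 and Mtl1 minus Red5. At an unadjusted p below 0.05 the first contrast held 33 gap strands (5.03%, beside 6.74% of all units), the second 17 (2.59%, beside 5.33%) and the third 61 (9.30%, beside 6.90%). The smallest adjusted p among the members was 0.386, 0.808 and 0.271 in the same order. With 2 arrays per bait, these values do not show that the baits bind alike. Across gap strands, arrays of the same bait correlated at 0.839 to 0.938 and arrays of different baits at 0.753 to 0.931. Slide 1 held replicate 1 of all baits, and there the gap mean was 0.89 against 0.55 on slide 2, which held the second Red1-FTP and Red5-FTP arrays, and 0.85 on slide 3, which held that of Mtl1-FTP. With the slide as a fixed block, which leaves 1 residual degree of freedom, 7, 28 and 121 gap strands differed in these contrasts, in that order. These are 1.07%, 4.27% and 18.4% of the members, beside 1.76%, 6.69% and 16.9% of all units in the same fit.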

How the data were processed

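The authors deposited 1 table per two-colour array from Agilent Feature Extraction 10.7.3.1. In it the deposited intensities are processed signals, background-subtracted and dye-normalized by that software, which replaces signals near background by an error estimate. The deposited log10 ratio carries a p-value per spot, and the deposited value table holds log2 ratios, with a 0 wherever the p-value reached 0.05 (53.95 to 63.75% of probes per array). The log2 of processed Cy5 over Cy3 was centred on the median of the non-control probes of each array (-0.33 to -0.12 before). Flagged outlier spots (40 to 81 per array) were left out and copies of 300 probes were averaged, whose median SD was 0.204 to 0.277. Precision is limited by the number of arrays. limma 3.58.1 in R 4.3.3 was fitted to all units (at least 3 values per array) and all probes with the bait as factor, and class contrasts used exact sign-flip tests over 64 patterns. The main unit fit, without a block, was tested on data simulated independently for each array. Named gap strands are the 10 highest and 5 lowest called, the 5 with most probes seen in the IP alone, the 3 nearest the median, any that differ between baits and the 4 gaps with the most unequal strands. Alternatives were other signals, background corrections, centres, filters, blocks, stretch rules and arrays. The members and lists were chosen with earlier results of these data known. Of the tile probes, 0 matched an identifier of the RefSeq gene table, so sequences, genes and annotated starts were not analysed here.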

Additional observations from a re-analysis of the deposited data

Results flagged for a closer look

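Over the 6 arrays, 62 class values, contrasts and named gap strands were searched for an array that stands apart by Dixon's ratio, which chance gives in about 1 of 20. The gap strand sp40c_7052 was the only 1 found. Its log2 ratio was -1.02 on the second Mtl1-FTP array, while the nearest other array was at -0.60 and the highest at -0.38. No gap strand differed between baits by the limma contrasts at an adjusted p below 0.05 (33, 17 and 61 at an unadjusted p below 0.05).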

How the results depend on the processing

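Of the class contrasts, gaps over the flanking transcribed strand, the neighbour side over the own side in the ratio, divergent over convergent gaps in the ratio and short under long gaps kept their direction under every alternative run, but not their size. Leaving aside single arrays left out, they ranged from 0.20 to 1.40, from 0.17 to 0.48, from 0.095 to 0.57 and from -0.38 to -0.12. Gaps minus transcribed strand was 0.20 with normexp and median centring, no longer past the threshold, and gaps minus opposite strand was 0.45 over probes detected in both channels, then past it. Neighbour minus own side in the IP signal turned to -0.23 without bridging of single probes. Over strands with at most 20% of the input detected, divergent minus convergent turned to 0.39 in the IP signal and to 8.03 percentage points in IP detection, and divergent minus tandem was -0.030 and -0.82 points. By the median over gaps, divergent minus tandem was -0.036 in the IP signal and -1.38 points. Divergent minus tandem in the ratio was -0.022 with normexp and -0.011 with normexp and loess. It passed at 0.076 before dye normalization, 0.13 and 0.041 over probes detected in either and in both channels, 0.085 with runs of 15 probes, 0.11 without bridging, 0.11 in gaps of 10 to 29 positions, 0.19 when trimmed and 0.15 by the median. Even minus odd strand was 0.052 with runs of 15 probes and -0.0050 without bridging.

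The median gap strand was at 1.05 before dye normalization, 0.27 with normexp, 0.28 with normexp and loess, 0.35 centred on the mean, 1.67 over probes detected in either channel and 0.46 in the value table. With a log2 ratio of at least 1 required, 34.15% were enriched and 0.152% depleted. Depleted were 10.4% with normexp, 20.7% centred on the mean, 2.38% over probes detected in either channel, 3.35% under a random slide block and 9.30% under a fixed slide block, where 7, 28 and 121 strands differed between baits (1.07%, 4.27% and 18.4%, beside 1.76%, 6.69% and 16.9% of all units). Enriched with Red1-FTP were 27.4% with normexp, 26.1% with loess, 28.8% centred on the mean and 33.1% in the value table, and with Mtl1-FTP 33.1% with normexp. Of the gap probes, 16.1% were enriched in the value table, and 13.6% were depleted before dye normalization, 18.3% with normexp, 11.3% with loess, 31.8% centred on the mean and 2.21% in the value table. The causes were not tested.

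With 1 array left out, the exact sign-flip test cannot go below p = 0.0625, so no class contrast could pass. Gaps minus transcribed strand ranged from 0.67 to 0.76 and gaps minus opposite strand from 0.16 to 0.31. Neighbour minus own side ranged from 0.31 to 0.34 in the ratio and from 0.24 to 0.28 in the IP signal. Divergent minus convergent ranged from 0.25 to 0.31, from -0.39 to -0.33 in the IP signal and from -5.12 to -3.84 points in detection. Divergent minus tandem ranged from 0.020 to 0.037, from -0.20 to -0.17 and from -2.34 to -1.91 points. Even minus odd ranged from 0.070 to 0.077 and short minus long from -0.21 to -0.20. The enriched share ranged from 62.96 to 69.97% and the depleted share from 1.98% (without Mtl1-FTP replicate 2) to 5.18%, with 3.51% without Red5-FTP replicate 2. Enriched shares per bait ranged from 27.9 to 59.6% for Red1-FTP (lowest without its replicate 1), from 22.3 to 60.4% for Mtl1-FTP (lowest without its replicate 2, and 30.95% without replicate 1) and from 26.1 to 58.5% for Red5-FTP (lowest without its replicate 1). The lone array of a bait was then assumed to vary like the others. Gap probes enriched ranged from 25.9 to 41.5% and depleted from 3.58 to 7.59%, lowest without Red5-FTP replicate 1 and 4.25% without its replicate 2.

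Of 534 alternatives for the 27 named gap strands, 504 kept direction and side of the threshold, 13 lost the call, 3 gained it and 14 changed sign, all in 2 strands near 0. The gap strand sp40c_128092 was -0.10 with normexp, -0.030 with loess, -0.32 centred on the mean, -0.11 in the value table and -0.0020 under the fixed slide block, and ranged from -0.0026 to 0.025 with 1 array left out. The gap strand sp40c_56003 was -0.089, -0.067, -0.27 and -0.11 under the first 4 of these, and ranged from -0.063 to 0.18 with 1 array left out.

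With the replicate number as a block, 67.68% of the gap strands were enriched, 4.73% were depleted and 0 differed between baits. The numbers were not treated as pairs, because the deviations of same-numbered arrays correlated at -0.55, 0.69 and -0.58 between baits.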
